A study of Mus musculus with 6 samples.

Results

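Interleukin receptor genes were taken as the protein-coding genes of the mouse build GRCm38 (mm10) whose symbol starts with Il, a number and r. The rule found 41 genes of 21887 coding genes. A peak was given to the coding gene with the end nearest the peak's midpoint, up to 100 kb away, and 29 of the 11013 peaks assigned in this way belonged to an interleukin receptor gene. Not every member is a receptor of an interleukin: Il1rn encodes a secreted antagonist, Il22ra2 a soluble binding protein, and Il1rapl1 and Il1rapl2 adhesion proteins of neuronal synapses. The peaks came from ATAC-seq, which marks open chromatin by where a transposase can cut in its adapters, of microglia sorted from brains of 8-week-old C57BL/6J mice. The conditional knockout (cKO) had the genotype Mir137loxP/loxP;Tmem119-CreERT2 and the control (cWT) the genotype Mir137+/+;Tmem119-CreERT2, so the recombinase allele at the microglial gene Tmem119 was shared by both and the floxed Mir137 alleles were not. Mice of both genotypes received tamoxifen for 7 days at 7 to 8 weeks of age. There were 3 libraries per genotype, the labels give about 50000 cells for each genotype, and the series states 4 mice but not which library came from which animal. The values analysed were the peaks listed as specific to a genotype, 8615 for cKO and 3490 for cWT, in 1 list each and with no value per library. The spread between replicates could therefore not be measured, the depth is unknown, no test between the genotypes was made, and every count below compares 2 lists. Intervals cover counting error only. In a list made from many sorted cells, a change in the share of cells with an open site and a change in openness within each cell cannot be told apart.

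Interleukin receptors let a cell sense cytokines released by other immune and tissue cells. Receptors of the IL-1 family pair a binding chain with an accessory chain and signal through MyD88 and IRAK kinases towards NF-kB, whereas most others pair a private chain with a shared chain and signal through Janus kinases and STAT factors. Decoy receptors bind the cytokine without signalling. In microglia, the resident macrophages of the brain, IL-10 receptor signalling is known for restraining inflammatory activation, and IL-4 and IL-13 drive an alternative activation state. The deleted gene encodes miR-137, a microRNA, whose seed pairs with target RNAs. The mature strand is printed from RefSeq (GRCm38.p6, chr3:118433901-118433923, plus strand), with the seed, bases 2 to 8, in capitals, because it is what the genotypes differ in.
mmu-miR-137-3p: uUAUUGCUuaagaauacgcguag

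RefSeq windows, which run from 250 bases before to 50 bases after an annotated transcript start, were found for 34 of the 41 genes. Il10ra and Il27ra, which had listed peaks, were without a window and could not be checked. At 4 of the 34 genes a listed peak reached into a window. These 4 windows are printed to show what the peaks near annotated starts cover, with the bases inside the peak in capitals. All are on the plus strand of GRCm38.p6. The cKO-specific peaks reached the windows of Il1r2 (chr1:40085843-40086142) and Il3ra (chr14:14346245-14346544), and the cWT-specific peaks those of Il15ra (chr2:11705462-11705761) and Il13ra1 (chrX:36111858-36112157).
Il1r2: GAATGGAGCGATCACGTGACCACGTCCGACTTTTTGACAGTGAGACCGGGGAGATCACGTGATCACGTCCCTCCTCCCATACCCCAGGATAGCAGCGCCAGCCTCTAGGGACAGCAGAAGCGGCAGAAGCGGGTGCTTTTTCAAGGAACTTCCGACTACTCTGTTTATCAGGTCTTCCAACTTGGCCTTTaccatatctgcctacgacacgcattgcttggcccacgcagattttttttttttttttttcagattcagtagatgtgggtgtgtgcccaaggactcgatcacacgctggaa
Il3ra: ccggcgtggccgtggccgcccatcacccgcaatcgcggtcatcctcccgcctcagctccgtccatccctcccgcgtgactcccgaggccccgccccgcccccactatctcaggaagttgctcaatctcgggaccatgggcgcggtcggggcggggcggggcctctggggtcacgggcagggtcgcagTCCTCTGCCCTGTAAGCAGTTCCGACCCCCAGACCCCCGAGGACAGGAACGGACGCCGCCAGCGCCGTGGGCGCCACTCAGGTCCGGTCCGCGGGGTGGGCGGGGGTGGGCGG
Il15ra: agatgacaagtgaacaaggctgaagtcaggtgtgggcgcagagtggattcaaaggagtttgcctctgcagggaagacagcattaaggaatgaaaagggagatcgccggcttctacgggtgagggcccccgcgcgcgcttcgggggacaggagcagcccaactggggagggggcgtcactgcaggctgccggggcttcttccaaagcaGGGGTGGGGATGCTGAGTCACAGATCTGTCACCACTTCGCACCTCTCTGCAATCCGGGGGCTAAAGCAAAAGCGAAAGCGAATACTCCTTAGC
Il13ra1: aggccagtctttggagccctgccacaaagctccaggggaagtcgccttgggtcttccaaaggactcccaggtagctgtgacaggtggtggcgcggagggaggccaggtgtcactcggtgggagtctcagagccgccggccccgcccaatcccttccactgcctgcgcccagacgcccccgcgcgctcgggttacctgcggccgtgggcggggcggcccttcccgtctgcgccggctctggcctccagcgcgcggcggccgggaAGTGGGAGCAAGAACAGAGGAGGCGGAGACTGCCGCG

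The peak covered 190 of the 300 bases at Il1r2, 113 at Il3ra, 93 at Il15ra and 37 at Il13ra1. The windows differed in base composition, with a GC content of 51.3% at Il1r2, 58.7% at Il15ra, 71.0% at Il13ra1 and 74.3% at Il3ra. In the Il15ra window the AP-1 motif TGANTCA occurred as TGAGTCA, 30 bases before the start and inside the cWT-specific peak. Of all 32851 RefSeq windows 7.81% held this motif on either strand. In the Il1r2 window the STAT motif TTCNNNGAA occurred as TTCAAGGAA, 111 bases before the start and inside the cKO-specific peak, against 8.30% of all windows. The motifs GAGGAAGT (PU.1, in 3.2% of all windows), TGTGGT (RUNX, 16.8%), GAAA with another GAAA after 2 bases of any kind (IRF, 3.44%) and GGGA followed by any base and TTTCC (NF-kB, 0.411%) were found in none of the 4 windows on either strand. Other motifs were searched after the sequences were seen. The E-box CACGTG lay at bases 13 to 18 and again at bases 56 to 61 of the Il1r2 window, both inside the peak. It was present in 7.15% of all windows and present 2 or more times in 0.594%. The Il15ra site is also a match to GCTGAGTCA, the AP-1 site extended as Maf factors prefer it, which 0.454% of all windows held. A match of letters is a description and not a binding site.

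The receptor genes carried peaks of both lists. The 29 peaks were 22 cKO-specific and 7 cWT-specific peaks, and lay at 14 of the 41 genes. The other 27 (65.9%) had none, beside 72.1% of all coding genes. A cKO-specific peak was found at 12 genes (29.3%), against 22.5% of all coding genes, and a cWT-specific peak at 6 genes (14.6%), against 11.4%. Peaks of both lists were found at 4 genes (9.76%), against 5.95% of coding genes, namely Il18r1, Il1r2, Il13ra1 and Il10ra. The receptor genes are longer than coding genes at large, with a median span of 31.1 kb against 17.2 kb. The part of gene length in these shares was not tested, and none of them is read as particular to receptors. The cKO list supplied 75.9% of the receptor peaks (exact 95% interval 56.5 to 89.7), and 71.7% of all assigned peaks (70.9 to 72.6). The receptor interval contains the share of the whole. This interval treats every peak as independent, although several peaks lie at the same gene, and it holds no spread between libraries. It therefore cannot decide whether the genotypes differ at receptor genes beyond the unequal length of the lists.

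**Figure D1:**
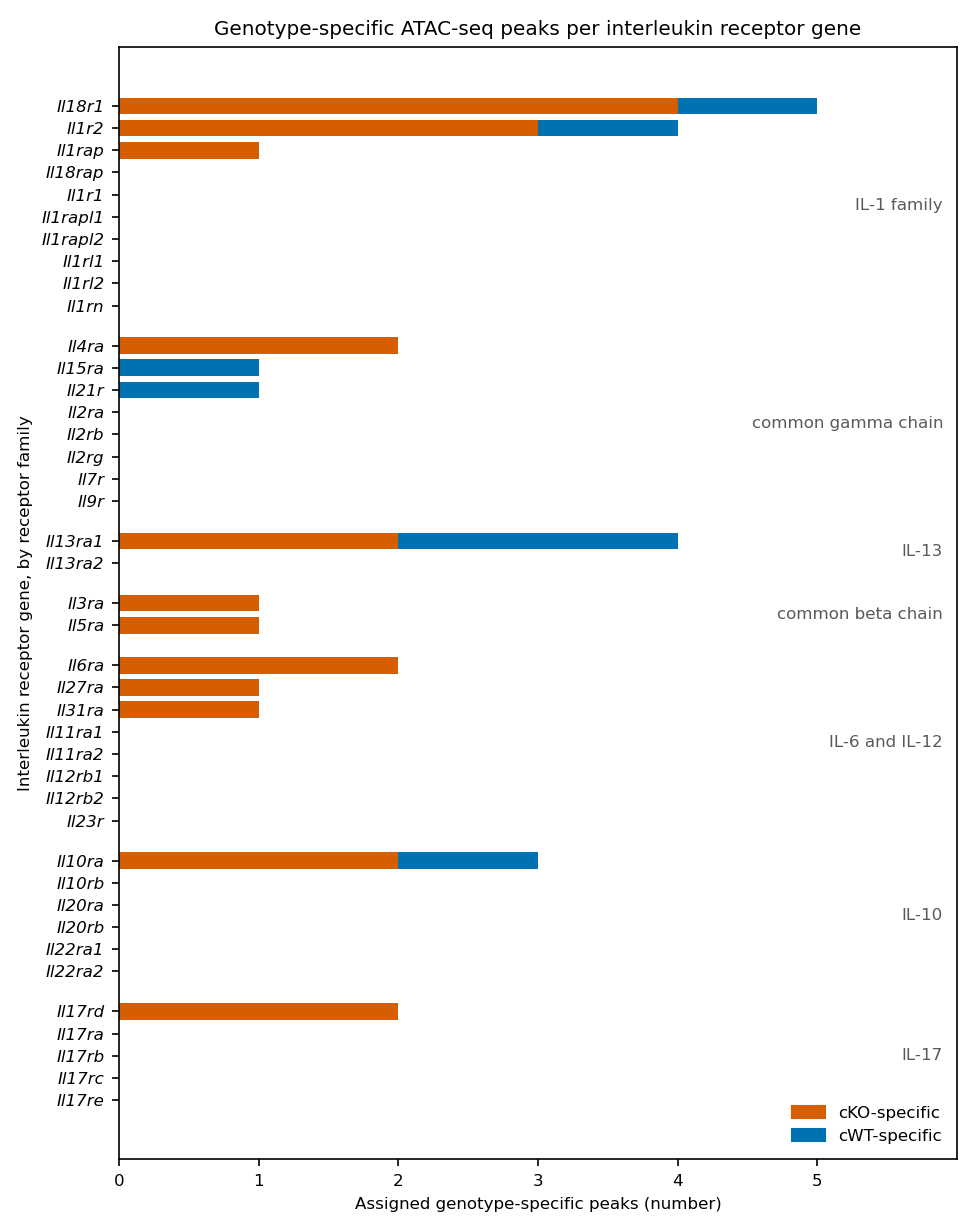
Number of assigned genotype-specific peaks (x axis) at each of the 41 interleukin receptor genes (y axis), ordered by receptor family, with cKO-specific peaks in orange and cWT-specific peaks in blue. Il18r1 has 5 peaks, Il1r2 and Il13ra1 have 4 each, and 27 genes have 0.

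In the IL-1 family 3 of 10 genes had a peak, with 8 cKO-specific and 2 cWT-specific peaks in all. Among all coding genes 72.1% had no peak, 22.5% a cKO-specific and 11.4% a cWT-specific one. These shares stand beside the count of every receptor family below, and no family is read as set apart from them. Il18r1, which encodes the binding chain of the IL-18 receptor, had the most of any receptor gene, 4 cKO-specific peaks and 1 cWT-specific peak. Among all coding genes 1.24% had 5 or more. Il1r2, which encodes a decoy receptor that binds IL-1 without signalling, had 3 cKO-specific peaks and 1 cWT-specific peak. Il1rap, which encodes the accessory chain shared by the receptors of IL-1, IL-33 and IL-36, had 1 cKO-specific peak deep inside the gene (chr16:26689749-26690066, signal 16.8, p-value 0.862). Il1r1, the signalling IL-1 receptor gene, Il1rl1, the IL-33 receptor gene, Il1rl2, the IL-36 receptor gene, Il18rap, Il1rn, Il1rapl1 and Il1rapl2 had 0.

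Il18r1 and Il1r2 belong to a cluster of 6 receptor genes with no other coding gene between them, which spans 467 kb (chr1:40084692-40551707). Its 9 listed peaks lay in 2 groups, at Il1r2 and at Il18r1. Between them, from chr1:40129666 to chr1:40473831, was a stretch of 344 kb with no peak of either list, and this stretch holds the whole of Il1r1, Il1rl2 and Il1rl1. Peak names carry numbers that increase along every chromosome in both lists, and they were taken as positions in the complete set of peaks called for that genotype. Taken so, 6 numbered peaks lay between the groups in the cKO numbering, from 298 to 305, and also 6 in the cWT numbering, from 250 to 257, and none of them is in the lists. The stretch is empty of genotype-specific peaks. On this reading of the numbers, which could not be checked, it is not empty of called peaks.

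**Figure D2:**
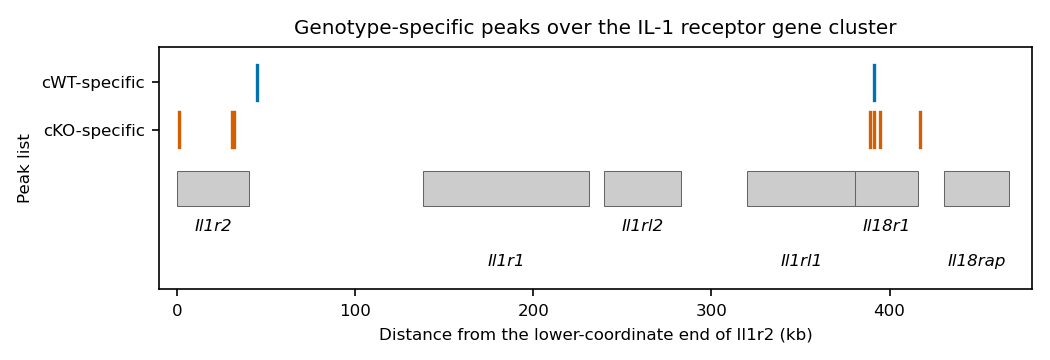
The cluster of 6 IL-1 receptor family genes, with distance from the lower-coordinate end of Il1r2 in kb (x axis), gene spans as grey boxes and the midpoints of cKO-specific (orange, lower row) and cWT-specific (blue, upper row) peaks as ticks (y axis, peak list). The 9 ticks fall at Il1r2 and at Il18r1, on either side of a stretch of 344 kb with none.

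At Il1r2 the first cKO-specific peak (chr1:40085710-40086032) covered bases 383 to 61 before an annotated transcript start of the gene and its midpoint lay 20 bp from an end of the noncoding RNA gene Gm16894, so that this end is inside the peak. It had an authors' signal of 6.81, at the 1.08th percentile of the cKO list, and a p-value of 0.956. The other pair lay side by side about 30 kb downstream of that start (chr1:40115424-40115798 and chr1:40116475-40116701), with signals of 13.5 and 11.3 and p-values of 0.909 and 0.892. The cWT-specific peak (chr1:40129427-40129666, signal 9.59, p-value 0.933) lay beyond the other end of the gene, 12725 bp from the nearest cKO-specific peak. All 4 Il1r2 peaks thus had signals below the median of their own list, which is 16.5 in cKO and 13.7 in cWT.

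At Il18r1 the 4 cKO-specific peaks were 4 consecutive numbers of the cKO numbering, 305 to 308, over 28.1 kb. Of these, 3 lay inside the gene (chr1:40473831-40474030, p-value 0.962, chr1:40475944-40476152, p-value 0.917, and chr1:40479509-40479723, p-value 0.798). The fourth lay just past its higher-coordinate end (chr1:40501646-40501881, p-value 0.926). Their signals ran from 8.93 to 14.8, all below the cKO median. The cWT-specific peak (chr1:40475739-40475934, signal 17.5, p-value 0.733) lay inside the gene 9 bp from the second cKO-specific peak, so the sites listed for the 2 genotypes adjoined. Such neighbours, within 100 bp without overlap, made up 1.31% of all cKO-specific and 3.18% of all cWT-specific peaks. This was the only place at a receptor gene where peaks of the lists came that close, and no receptor peak overlapped a peak of the other list. Overlap was rare everywhere, with 184 of 8615 cKO-specific and 184 of 3490 cWT-specific peaks, so its absence here is not read as particular to receptors.

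Il4ra and Il13ra1 encode the chains that together form the receptor through which IL-13, and also IL-4, signals in macrophages. Il4ra had 2 cKO-specific peaks and no cWT-specific peak. One lay inside the gene, 3142 to 3616 bases downstream of its annotated start (chr7:125555413-125555887), and had the lowest p-value of any receptor peak, 0.315, with a signal of 16.2. The other lay 9854 to 10368 bases upstream (chr7:125541903-125542417, signal 26.2, p-value 0.677). Il21r, the IL-21 receptor gene next to Il4ra, had the reverse, 1 cWT-specific peak 1404 to 1587 bases upstream of its start (chr7:125601842-125602025, signal 11.1, p-value 0.738) and no cKO-specific peak.

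At Il13ra1 the peaks of the lists alternated along the chromosome. A cKO-specific peak lay 3209 to 3701 bases upstream of the start (chrX:36108407-36108899, signal 16.4, p-value 0.721). A cWT-specific peak lay from base 13 to base 541 downstream of it (chrX:36112121-36112649, signal 14.1, p-value 0.804), then a cKO-specific peak about 18 kb into the gene (chrX:36130067-36130302, signal 26.5, p-value 0.577), then another cWT-specific peak (chrX:36136413-36136858, signal 13, p-value 0.921). The smallest gap between peaks of different lists was 3221 bp, so these were separate sites. Il13ra2, which encodes the IL-13 decoy receptor, had 0 of either kind.

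Among the other genes of receptors that use the common gamma chain, Il15ra, which encodes the alpha chain that presents IL-15, had 1 cWT-specific peak and no cKO-specific peak. The peak (chr2:11705669-11705854) ran from 43 bases before to 142 bases after an annotated start, and had the lowest p-value of the 7 cWT-specific receptor peaks, 0.697, and the highest signal, 21.7. Il2ra, Il2rb, Il2rg, Il7r and Il9r, which encode the chains of the IL-2, IL-7 and IL-9 receptors and the common gamma chain itself, had 0. Of the 8 genes of this group 1 had cKO-specific peaks and 2 had cWT-specific peaks, beside 22.5% and 11.4% of all coding genes.

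Il3ra and Il5ra, the alpha chains that pair with the common beta chain, had 1 cKO-specific peak each and no cWT-specific peak. The Il3ra peak (chr14:14346432-14346575) spanned an annotated start, from 63 bases before it to 80 after, with a signal of 17.1 and a p-value of 0.444. The Il5ra peak (chr6:106750231-106750689) lay 1194 to 1652 bases upstream of the start, with a signal of 25.2 and a p-value of 0.523. Both were thus within 2 kb of the annotated start, in the same list.

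In the group of IL-6 and IL-12 type receptors 3 of 8 genes had peaks, 4 in all, every one cKO-specific. Il6ra, which encodes the IL-6 binding chain, had 1 inside the gene (chr3:89887608-89887863, signal 19.6, p-value 0.690) and 1 upstream, 7685 to 7825 bases before the start (chr3:89920881-89921021, signal 8.89, p-value 0.946). Il31ra, a chain of the IL-31 receptor, had 1 more than 50 kb into the gene (chr13:112529848-112530254, signal 26.6, p-value 0.457). Il27ra, a chain of the IL-27 receptor, had 1 inside the gene, with its midpoint 304 bp from the higher-coordinate end (chr8:84042100-84042492, signal 25.5, p-value 0.796). Il12rb1, Il12rb2, Il23r, Il11ra1 and Il11ra2 had 0. With 4 peaks the absence of a cWT-specific one is not shown to be a difference.

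Il10ra, which encodes the ligand-binding chain of the IL-10 receptor, was the only one of 6 genes of the IL-10 group with a peak. Its 2 cKO-specific peaks were consecutive in the cKO numbering. One lay outside the gene, with its midpoint 1105.5 bp from the lower-coordinate end (chr9:45252553-45252910, signal 6.02, p-value 0.951). The other lay inside it, with its midpoint 279 bp from the microRNA gene Mir7086 (chr9:45266146-45266582, signal 10.8, p-value 0.767). The cWT-specific peak (chr9:45254419-45254658, signal 5.98, p-value 0.972) lay inside the gene 1508 bp from the first of them, and both had signals under the 1st percentile of their lists. Il10rb, Il20ra, Il20rb, Il22ra1 and Il22ra2 had 0.

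Of the 5 IL-17 receptor genes, Il17rd had 2 cKO-specific peaks, 1 upstream of the start (chr14:27029828-27030053, signal 19.1, p-value 0.801) and 1 near the far end of the gene (chr14:27096814-27097106, p-value 0.603). The second had a signal of 29.2, the highest of the 22 cKO-specific receptor peaks. Il17ra, the chain shared by the IL-17 receptors, and Il17rb, Il17rc and Il17re had 0.

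**Figure D3:**
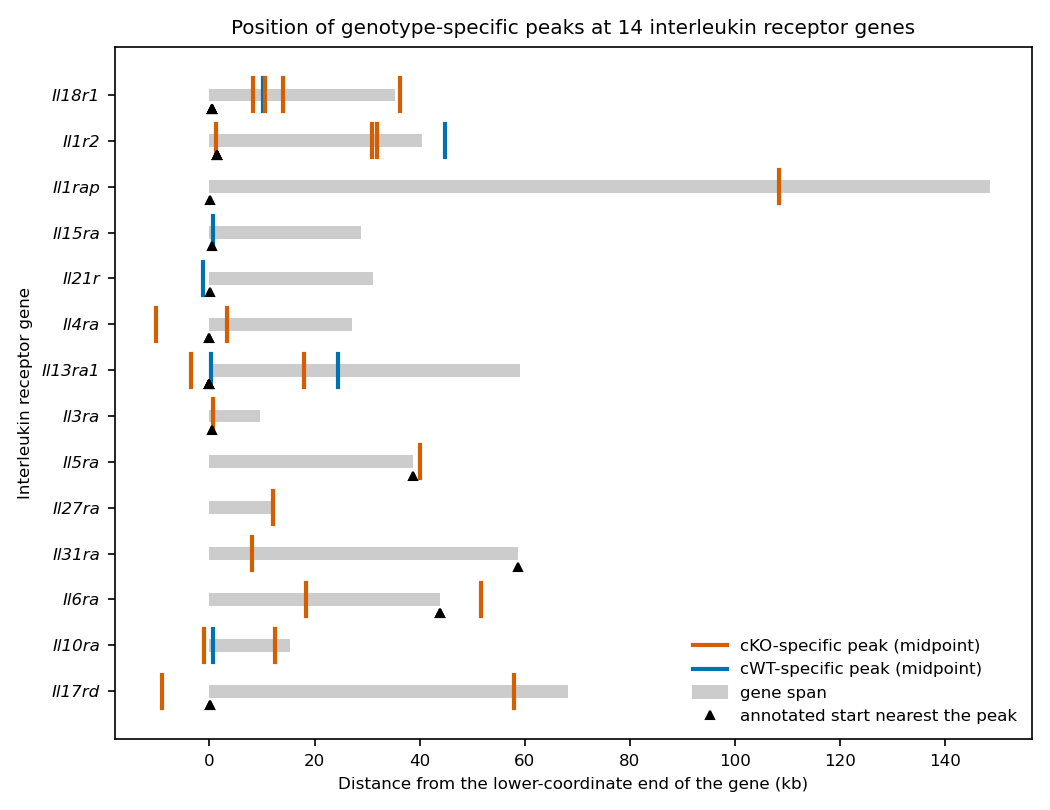
Midpoints of cKO-specific (orange) and cWT-specific (blue) peaks at the 14 interleukin receptor genes with peaks (y axis), by distance from the lower-coordinate end of the gene in kb (x axis), with the gene span in grey and the annotated starts nearest the peaks as triangles. At Il13ra1 the peaks of the lists alternate, and at Il3ra and Il15ra a peak spans an annotated start.

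By region, 3 of the 22 cKO-specific peaks (13.6%) lay within 1000 bp of an end of a coding gene, 13 (59.1%) elsewhere inside genes and 6 (27.3%) between genes. The shares over the whole cKO list were 13.7%, 51.2% and 35.1%. Of the 7 cWT-specific peaks 3 lay within 1000 bp of a gene end, at Il15ra, Il10ra and Il13ra1, against 15.9% of the whole cWT list. The median distance from a peak's midpoint to the gene end was 8249.25 bp for cKO-specific and 1318.5 bp for cWT-specific receptor peaks, beside 10500.5 and 11607.5 bp over all assigned peaks of each list. With 7 cWT-specific peaks these positions are a description. No receptor peak lay inside another coding gene, and the farthest, that of Il1rap, was 40220.5 bp from the gene's end.

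None of the 29 peaks was among those the authors named primary, which number 243 of 8615 in cKO and 48 of 3490 in cWT. Such peaks are thus few in both lists, and their absence here is not read as particular to receptors. The authors' p-value was at most 0.5 for 3 of the 22 cKO-specific peaks (13.6%), those of Il4ra, Il3ra and Il31ra, and for 12.1% of the whole cKO list. It was at most 0.5 for 0 of the 7 cWT-specific peaks and for 6.16% of the whole cWT list. The median was 0.797 in cKO and 0.804 in cWT, beside 0.818 and 0.886 over the lists. The adjusted p-value was the same in every cKO-specific receptor peak, 0.979, and in every cWT-specific one, 0.981. The name p-value is itself a reading of a column without a header. The sources used here do not say what this value tests, and no receptor peak is shown by it to differ between the genotypes.

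**Figure D4:**
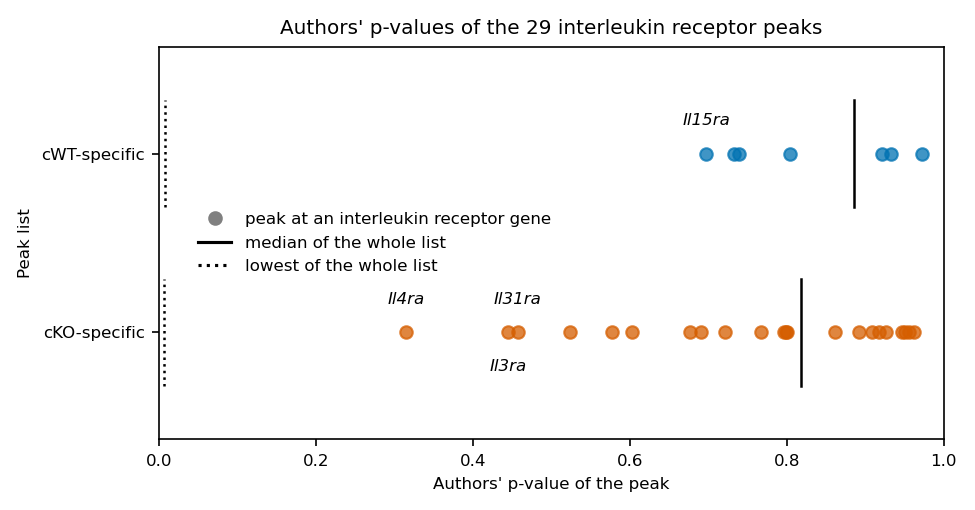
Authors' p-value (x axis) of each of the 29 peaks at interleukin receptor genes in the 2 peak lists (y axis), with the median (solid line) and the lowest value (dotted line) of each whole list. The cKO-specific peaks range from 0.315, at Il4ra, to 0.962, and the cWT-specific peaks from 0.697, at Il15ra, to 0.972.

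The 27 genes without an assigned peak also had none inside them. The nearest listed peak of either genotype was 4109 to 868945 bp away, from edge to edge, with a median of 50594 bp. It was within 20 kb at 7 genes. At Il12rb1 it was a cKO-specific peak 4109 bp away that is nearer to Mast3, at Il22ra1 one 8238 bp away given to Myom3, and at Il17ra one 10262 bp away given to Kdm5a. At Il1rl1 and Il18rap it was a cKO-specific peak of Il18r1, 8413 and 13481 bp away, at Il2ra the cWT-specific peak of Il15ra, 12475 bp away, and at Il9r a cKO-specific peak of Rhbdf1, 16059 bp away. At 11 genes no listed peak lay within 100 kb, among them Il2rg, where the nearest was 502041 bp away, and Il1rapl1 and Il1rapl2, which span 1375 and 1278 kb and had none inside. A gene without a listed peak can still be open in both genotypes, since the lists hold only genotype-specific peaks.

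The genes around the receptors were covered as follows, in lists chosen with earlier results of these data known. Of 39 interleukin genes 13 (33.3%) had a cKO-specific and 4 (10.3%) a cWT-specific peak, including 2 and 0 at Il15, Il18 and Il1b, 2 and 2 at Il6, and 0 and 1 at Il12b. Among all coding genes these shares are 22.5% and 11.4%. Of 15 genes of partner chains and decoys 9 (60.0%) had a cKO-specific and 5 (33.3%) a cWT-specific peak. Lifr, a receptor chain that pairs with gp130, had 3 and 0, Osmr, the oncostatin M receptor gene, 2 and 1, Crlf2, the thymic stromal lymphopoietin receptor gene, 1 and 0, Ifngr2, whose product binds interferon-gamma with Ifngr1, 1 and 2, and Csf2rb2, a beta chain of the mouse IL-3 receptor, 1 and 1. Of 17 genes of JAK-STAT signalling 6 (35.3%) and 3 (17.6%) had such peaks, with 3 and 0 at Stat5b, 2 and 0 at Socs3, a feedback inhibitor of gp130 signalling, 1 and 0 at Jak2, and 0 and 1 at Socs2. Of 12 genes that signal from IL-1 receptors 5 (41.7%) had a cKO-specific peak and 0 a cWT-specific one, with 4 and 0 at Tab2, 2 and 0 at Irak2 and 1 and 0 at Irak1. The lists are small, and no test of them was made.

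**Figure D5:**
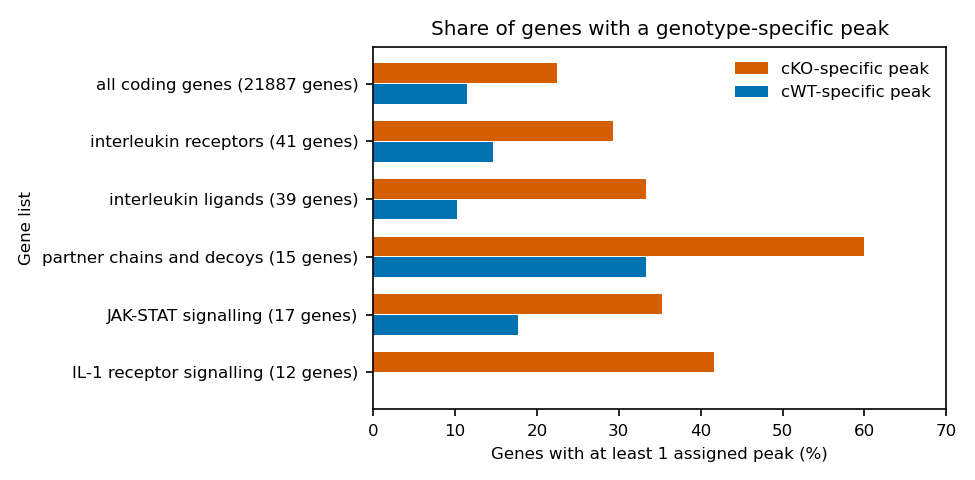
Percent of genes with at least 1 cKO-specific (orange) or cWT-specific (blue) peak (x axis) among all coding genes, the interleukin receptor genes and 4 lists of related genes (y axis, with the number of genes). Interleukin receptors stand at 29.3% and 14.6%, beside 22.5% and 11.4% of all coding genes.

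Interleukin receptors are also genes of lymphocytes and blood-borne macrophages, which a sort of brain cells can contain. Of 12 microglial marker genes 8 (66.7%) had a cKO-specific and 2 (16.7%) a cWT-specific peak, against 22.5% and 11.4% of all coding genes. Of 12 lymphocyte markers 3 (25%) and 1 (8.33%) had such peaks. Of 10 border macrophage and monocyte markers 4 (40%) and 3 (30%) did. The lymphocyte markers with peaks were Cd4 (2 and 1), Lck (1 and 0) and Ms4a1 (1 and 0), so the genes of the CD3 chains had 0. Neuronal markers had 3 (30%) and 2 (20%) of 10, and astrocyte and oligodendrocyte markers 6 (60%) and 3 (30%) of 10. The part of other cells in the receptor peaks was not tested.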

How the data were processed

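ATAC-seq of 6 libraries, 3 cKO and 3 cWT, grouped by title, was available as 1 deposited peak list per genotype. Bowtie2 2.4.4, MACS2 2.2.7.1 and HOMER 4.11 with GRCm38 and mm10 are named per the submitters' processing notes. Not given in the sources used here are how each tool was used, how replicates were combined, whether reads were shifted and by what rule a peak counted as specific. The lists have no header, and the names signal, p-value and adjusted p-value are a reading of their columns. The score that the authors deposited is a fixed multiple of log2 of the p-value, rounded down, in all 12105 peaks. The authors' deposited signal comes with no scale and was ranked only within a list. What the values read as p-value and adjusted p-value test is not stated either. Libraries of 1 genotype that are deeper would lengthen its list, and this could not be corrected.

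Positions are 1-based. Peaks were assigned to the nearest end of 21887 coding genes (RefSeq, GRCm38.p6, without the mitochondrial genome) within 100 kb; a peak so assigned is not shown to regulate that gene. The code of the assignment was checked on simulated peaks, against distances worked out by the same rule. That check does not show that a peak belongs to its gene. Starts, strands and promoter sequences came from RefSeq windows, found for 34 of the 41 genes (42 windows). The cKO shares of assigned peaks have exact (Clopper-Pearson) 95% intervals, and the other shares have none. The members and gene lists were chosen with earlier results of these data known. Of 44 interleukin entries 39 matched, the other 5 being alternative names of listed genes. All receptor genes with a peak are named; in related lists the 3 genes with most cKO-specific and the 2 with most cWT-specific peaks, and of the marker lists only lymphocyte genes. Some genes that this rule covers are not reported here. The software was Python 3.11.15 with numpy 2.4.6, pandas 2.3.3, scipy 1.17.1 and matplotlib 3.10.9.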

Additional observations from a re-analysis of the deposited data

How the results depend on the processing

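The 22 cKO-specific and 7 cWT-specific peaks, the cKO share of 75.9% and the 12 and 6 genes with such peaks were recomputed under 11 alternatives. Of 54 values, 43 stayed within 1.5 times the count or within the interval of the share, and 11 moved, all under limits on the authors' own values, which leave fewer peaks. With scores at or above the list's median there were 13 cKO-specific and 4 cWT-specific peaks, a cKO share of 76.5%. Over all assigned peaks that share was 71.5%. With p-values up to 0.5 there were 3 and 0 peaks, at 3 and 0 genes, so the cKO share was 100%. The same limit raised the cKO share of all assigned peaks from 71.7% to 83.3%. It left a cKO-specific peak at 4.18% and a cWT-specific peak at 0.886% of coding genes. With 3 peaks, the 100% is not read as particular to receptors. With primary peaks only there were 0 and 0 peaks at 0 and 0 genes, and no share. Primary cKO-specific and cWT-specific peaks lay at 1.05% and 0.206% of coding genes. Counts were the same with limits of 50 kb or none, with the containing gene first, with peaks within 500 bp merged, without peaks that overlap the other list, and without Il1rn, Il1rapl1 and Il1rapl2. A limit of 10 kb gave 15 and 5 peaks. Assignment among all annotated genes gave 16 and 6; it moved 7 peaks to noncoding genes or a pseudogene, among them the only Il1rap peak, the Il1r2 peak nearest the annotated start and the pair deep inside Il13ra1. No paired analysis was possible because the lists give no separate value for any library, and for the same reason no replicate could be left out. Without reads or counts, depth limits every statement that a site is absent from a list.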

Other observations

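The DNA letters that pair with the miR-137-3p seed, AGCAATA on either strand, occurred in 1 of the 42 RefSeq start windows of interleukin receptor genes, that of Il18rap, and in 2.16% of all 32851 windows. Il18rap, which encodes the accessory chain of the IL-18 receptor, had no listed peak. None of the 4 windows that a peak reached held these letters. The search was chosen after the lists were seen and covers only 300 bases per start.

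Over all receptor windows these motifs were found as follows. TGANTCA was in 16.7% of the 42 windows, at 7 genes, beside 7.81% of all windows. TTCNNNGAA was in 11.9%, at 5 genes, beside 8.30%. TGTGGT was in 21.4%, at 9 genes, beside 16.8%. No test was made of these shares. GAGGAAGT was found only at Il18rap (3.2% of all windows), the IRF motif only at Il1rap (3.44%), and the NF-kB motif in none (0.411%). Of the windows with one of these motifs, those of Il1r2 and Il15ra alone were reached by a peak.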
